A study of Mus musculus with 4 samples.

Results

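The citric acid cycle enzymes of the mitochondrial matrix were followed through RNA-seq libraries made from fractions of mouse heart. The 9 genes Cs, Idh2, Idh3a, Idh3b, Idh3g, Ogdh, Dlst, Suclg1 and Mdh2 were taken by name from the deposited table, which lists 15746 genes, and all 9 were present. Succinate dehydrogenase and some other subunits of the cycle were not among them and are described further below. The hearts came from WT mice, and no gene was altered and no drug given in either group. In 2 libraries RNA came from isolated mitochondria. In the other 2 it came from the part that the paper calls non-mitochondrial, here the rest fraction. The rest libraries were not free of mitochondrial RNA, with 63.2% and 67.5% of normalized counts on the mitochondrial chromosome. Homogenized heart was spun at low speed, the pellet of cell debris was kept as the rest fraction, and mitochondria were pelleted from the supernatant at higher speed. Only for the mitochondria do the methods describe digitonin, a detergent that opens cholesterol-containing membranes, treatment with RNase A and an adjusted RNA fragmentation time, so these steps and the fraction cannot be told apart. The sources used here do not say whether libraries came from separate animals, and p-values therefore measure the spread between these libraries, which may be technical.

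The citric acid cycle oxidizes the acetyl group of acetyl-CoA to carbon dioxide and passes the electrons to NAD and ubiquinone for the respiratory chain. It runs in the mitochondrial matrix and carries most of the energy metabolism of heart muscle, which is rich in mitochondria. All its enzymes are encoded in the nucleus. Their mRNAs are translated in the cytosol, partly by ribosomes at the outer membrane, and most of the proteins are imported with a cleavable N-terminal presequence that is rich in basic and poor in acidic residues.

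The start of the coding sequence was read for each member, because this stretch encodes the presequence. The members were chosen by name as mitochondrial matrix enzymes, so a presequence-like start is not independent of their selection. In the first 25 codons of the annotated GENCODE M21 transcript, all 9 members had 0 codons for aspartate or glutamate. Among 12262 nuclear protein-coding genes of the table, 16.6% had 0 such codons in this stretch, and the median was 2. The members had between 1 and 4 arginine codons here, against a median of 1 over those genes. The highest number, 4, was found in Idh3b and Dlst, and the lowest, 1, in Idh3g and Suclg1. At least 3 arginine codons with at most 1 acidic codon were found in 4 of the 9 members and in 11.2% of those genes. The lines show the first 75 bases of coding sequence, 5′ to 3′, with arginine codons in capitals, for isocitrate and malate dehydrogenase with their cytosolic counterparts and for both members of the 2-oxoglutarate dehydrogenase complex.
Idh2 (mitochondrial): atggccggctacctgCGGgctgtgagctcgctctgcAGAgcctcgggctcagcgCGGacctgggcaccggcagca
Idh1 (cytosolic): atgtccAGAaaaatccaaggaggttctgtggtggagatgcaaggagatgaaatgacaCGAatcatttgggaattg
Mdh2 (mitochondrial): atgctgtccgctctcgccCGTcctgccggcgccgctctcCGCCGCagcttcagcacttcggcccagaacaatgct
Mdh1 (cytosolic): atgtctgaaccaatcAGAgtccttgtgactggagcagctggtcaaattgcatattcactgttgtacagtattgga
Dlst: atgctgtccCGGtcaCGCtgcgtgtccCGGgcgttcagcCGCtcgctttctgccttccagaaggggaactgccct
Ogdh: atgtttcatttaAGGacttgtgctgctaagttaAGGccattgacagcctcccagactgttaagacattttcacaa
Idh2 and Mdh2 had 3 arginine codons and 0 acidic codons each, whereas Idh1 had 2 arginine and 4 acidic codons and Mdh1 had 1 of each. The start codons lie on GRCm38 at chr7:80115274-80115276 on the minus strand for Idh2 and at chr5:135778736-135778738 on the plus strand for Mdh2.

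The deposited values, called normalized counts, are the reads of each gene over the size factor of its library, in whole numbers. The spacing of the values showed that a read was worth 3.87 normalized counts in mitochondrial replicate 1 and 2.55 in replicate 2, and 0.264 and 0.365 in rest replicates 1 and 2. Summed over genes, mitochondrial replicates 1 and 2 held 183395941 and 81928351 normalized counts, against 6956699 and 8584617 for the rest replicates, so that by the worth of a read the rest libraries were the shallower ones. Mitochondrial rRNA took 94.5% and 82.5% of the counts in mitochondria and 52.6% and 58.4% in the rest libraries. The members therefore rested on 101 to 1207 reads each in the mitochondrial libraries and on 629 to 16265 reads each in the rest libraries, all above the level of 3 reads. PCR copies cannot be told apart in these reads. Cardiomyocyte markers were abundant in both fractions, with Myh6 at 174838 and 128576 normalized counts in mitochondria and at 184487 and 161461 in the rest fraction. The 9 members summed to 18739 and 12802 normalized counts in mitochondria and to 12528 and 10208 in the rest fraction, where replicate 1 was the higher of both pairs.

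Cs, which joins acetyl-CoA to oxaloacetate to give citrate, lies on chromosome 10 from 128337734 to 128362479 on the plus strand. In mitochondrial replicates 1 and 2 it reached 1472 and 1186 normalized counts, and in rest replicates 1 and 2 it reached 1249 and 1025. The ranges of the fractions overlapped, since mitochondrial replicate 2 lay below rest replicate 1. The log2 fold change, mitochondria over rest, was 0.22 (95% interval -0.32 to 0.76, limma adjusted p = 0.497). A transcript of the gene Csl is 90.4% identical to that of Cs over 1617 bases, and Csl was listed with at most 8 normalized counts in any library.

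Isocitrate is oxidized to 2-oxoglutarate by an NAD-dependent enzyme, built from a catalytic subunit, Idh3a, and from Idh3b and Idh3g, and in parallel by the NADP-dependent Idh2. Idh3a (chromosome 9, 54586334 to 54604661, plus strand) had 1809 and 1416 normalized counts in mitochondria and 871 and 966 in the rest fraction. Idh3b (chromosome 2, 130279309 to 130284547, minus strand) had 1503 and 1125 normalized counts in mitochondria and 711 and 595 in the rest fraction. For both genes the lower mitochondrial value was well above the higher rest value, 1.47 times for Idh3a and 1.58 times for Idh3b. Idh3g (chromosome X, 73778963 to 73786897, minus strand) had 391 and 393 normalized counts in mitochondria and 269 and 230 in the rest fraction. The mitochondrial values of Idh3g differed by less than the worth of a single read, and both were above the rest values. Idh2 (chromosome 7, 80094846 to 80115392, minus strand) had 4675 and 2650 normalized counts in mitochondria and 2541 and 1845 in the rest fraction. It had the widest spread of the members between the mitochondrial libraries, 1.76 times, and its second mitochondrial value was only 1.04 times the higher rest value. The log2 fold changes were 0.80 for Idh3a (standard error 0.198, limma adjusted p = 0.0798) and 1.00 for Idh3b (standard error 0.220, limma adjusted p = 0.0677). They were 0.65 for Idh3g (standard error 0.175, limma adjusted p = 0.0929) and 0.70 for Idh2 (standard error 0.347, limma adjusted p = 0.246). Exons of Idh3b share 5 bases with Nop56 on the opposite strand, and Nop56 was listed with 41 to 58 normalized counts. In Idh2, the TEC transcript Gm45203 lies on the same strand without sharing exon bases.

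Ogdh and Dlst encode the E1 and E2 components of the 2-oxoglutarate dehydrogenase complex, which oxidizes 2-oxoglutarate to succinyl-CoA. Ogdh (chromosome 11, 6291633 to 6356642, plus strand) had 3803 and 2441 normalized counts in mitochondria and 4298 and 3262 in the rest fraction. It was the only member with a lower mean in mitochondria, and the ranges overlapped (log2 fold change -0.30, standard error 0.297, limma adjusted p = 0.530). Dlst (chromosome 12, 85110833 to 85134845, plus strand) had 1348 and 903 normalized counts in mitochondria and 900 and 858 in the rest fraction. Mitochondrial replicate 2 and rest replicate 1 of Dlst differed by about the worth of a single read, and the log2 fold change was 0.33 (standard error 0.243, limma adjusted p = 0.407). Without mitochondrial replicate 2 the log2 fold change of Ogdh was 0.022.

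Suclg1 encodes the alpha subunit of succinyl-CoA ligase, the step of the cycle that forms a nucleoside triphosphate directly. It lies on chromosome 6 from 73248382 to 73276911 on the plus strand and had 926 and 696 normalized counts in mitochondria and 446 and 390 in the rest fraction. Both mitochondrial values exceeded both rest values, the lower of them 1.56 times (log2 fold change 0.94, standard error 0.213, limma adjusted p = 0.0699). Mdh2, which oxidizes malate back to oxaloacetate, lies on chromosome 5 from 135778480 to 135790398 on the plus strand. It had 2812 and 1992 normalized counts in mitochondria and 1243 and 1037 in the rest fraction, and again the fractions did not overlap. Its log2 fold change of 1.06 was the largest of the members (standard error 0.240, limma adjusted p = 0.0705).

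**Figure D1:**
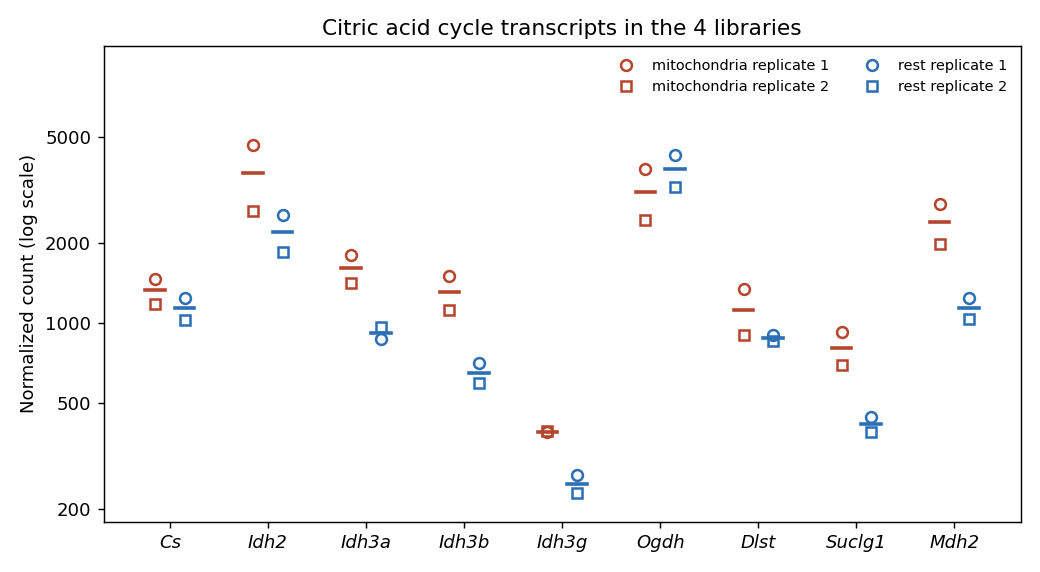
Normalized counts (log scale) of the 9 members in each library, with circles for replicate 1, squares for replicate 2 and bars for the mean of a fraction. Idh3a, Idh3b, Idh3g, Suclg1 and Mdh2 stand clearly apart between mitochondria and rest, whereas the values of Cs and Ogdh are interleaved.

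The fractions were compared with limma on log2 values after adding 1, over the 12150 genes with 10 or more normalized counts in 2 or more libraries, and p-values were adjusted over this whole set. A gene is said to be called where its adjusted p-value was under 0.05. By this rule limma called 0 of the 9 members higher and 0 lower in mitochondria, against 2.16% of all tested genes called higher and 1.39% called lower. At an unadjusted p-value under 0.05, 5 members were higher, namely Idh3a, Idh3b, Idh3g, Suclg1 and Mdh2, and 0 were lower. This count of members fell to 2 without rest replicate 1 and to 0 without rest replicate 2. The corresponding shares of all tested genes were 14.1% higher and 16.2% lower. Both mitochondrial values exceeded both rest values in 7 of the 9 members, against 27.7% of all tested genes, and the reverse held for 0 members and for 33.4% of all tested genes. The median log2 fold change was 0.70 over the members and -0.14 over all tested genes, and 8 of the 9 members lay above the median gene. In these bulk samples, fewer cells of a type and less RNA per cell cannot be told apart.

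**Figure D2:**
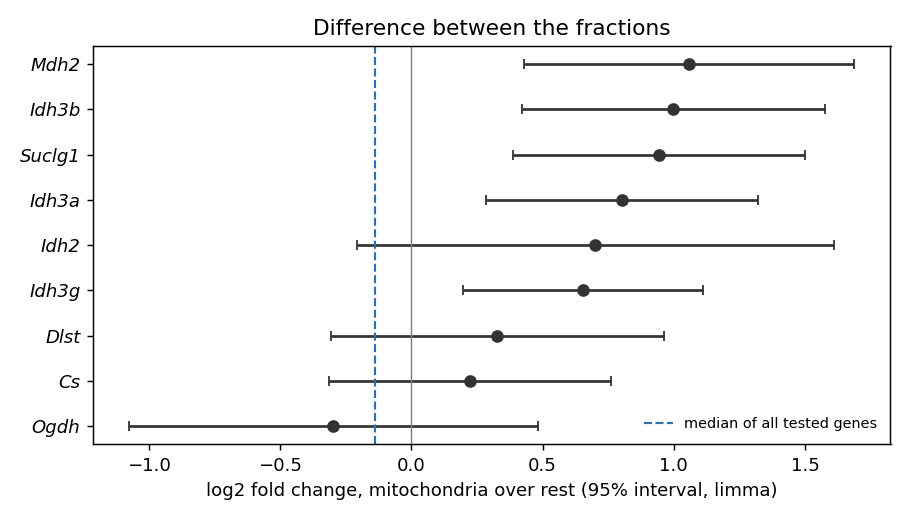
Log2 fold change of each member, mitochondria over rest, with its 95% interval from limma; the dashed line is the median of all tested genes at -0.14. The intervals of Mdh2, Idh3b, Suclg1, Idh3a and Idh3g lie above 0, those of Idh2, Dlst, Cs and Ogdh include it, and none of the 9 passed the adjusted threshold.

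The direction of these differences depended on the scaling of the libraries. With size factors recomputed over nuclear protein-coding genes with a mean above 50 normalized counts, the median of all tested genes was -0.10. There limma called 4 members higher, Idh3a, Idh3b, Suclg1 and Mdh2, and 666 of the 12150 tested genes higher. After scaling to the library total, the median gene had a log2 fold change of -3.93 and the median member had -3.29. Limma then called all 9 members lower, and with them 12022 of the 12150 tested genes. With the mitochondrial chromosome left out of the total, the median gene had -0.98, the median member had -0.16, and 3 members had a positive log2 fold change. Scaling a library shifts the log2 values of its genes by nearly the same amount, apart from the effect of the added 1 on low values. The place of a member relative to the median gene could therefore hardly change, and its sameness across scalings is not separate evidence. Relative to the median gene, 8 of the 9 members were higher under each of the scalings tried, and the median member exceeded it by 0.60 to 0.84 on the log2 scale. Ogdh lay below the median gene under each of them.

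Compared per kilobase of annotated exon sequence, Idh2 had the highest mean level in both fractions, with 1415 ± 553 normalized counts per kilobase (SD, n = 2) in mitochondria and 847 ± 190 (SD, n = 2) in the rest fraction, where its range overlapped that of Ogdh. In mitochondria it was followed by Mdh2 with 674 ± 163 and Ogdh with 572 ± 177 (SD, n = 2 each), whose ranges overlapped. In the rest fraction this order was inverted, with 693 ± 134 normalized counts per kilobase for Ogdh and 320 ± 40.9 for Mdh2 (SD, n = 2 each), and the ranges were apart. Per kilobase of the main transcript instead, the ranges of Mdh2 and Ogdh were apart in mitochondria, with Mdh2 higher, and overlapped in the rest fraction, and the ranges of Idh2 and Mdh2 overlapped in mitochondria. Idh3b and Idh3a, at 384 and 318 normalized counts per kilobase in mitochondria, had overlapping ranges, but within each mitochondrial library Idh3a stood below Idh3b, at a ratio of 0.812 and 0.849. Cs, Suclg1, Idh3g and Dlst followed in mitochondria with means of 230, 176, 145 and 118 normalized counts per kilobase. In the rest fraction Idh3g, Dlst and Suclg1 had means between 90.5 and 92.4 normalized counts per kilobase, with overlapping ranges. The exon lengths hold every annotated isoform, and on the scale of the main transcript Idh3g had the lowest level in both fractions.

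Ratios between genes of the same library do not depend on how the libraries are scaled. The lengths used were again those of all annotated exons, for Dlst 9559 bases against 2764 in the main transcript. The size of a ratio, and which gene is the higher, therefore depend on the choice of length. The difference of a ratio between the fractions does not. For 9 such ratios of values per kilobase, an exact two-sided permutation test with 2 libraries against 2 cannot give a p-value below 0.33, and with 9 ratios none could pass a threshold of 0.05. Dlst stood to Ogdh at 0.202 and 0.211 in the mitochondrial libraries and at 0.12 and 0.15 in the rest libraries. The mitochondrial ratios of this E2 component to its E1 component were thus above both rest ratios, 1.54-fold on average (exact permutation p = 0.33). The ratio of Idh3b to Idh3g was 3.03 and 2.26 in mitochondria and 2.08 and 2.04 in the rest fraction, also without overlap (exact permutation p = 0.33). For the other 7 ratios the ranges of the fractions overlapped. The narrowest was that of Suclg1 to Suclg2, the beta subunit of the GTP-forming ligase, at 2.91 and 2.96 in mitochondria and 2.87 and 2.99 in the rest fraction. Suclg1 to Sucla2, the beta subunit of the ATP-forming ligase, stood at 0.555 and 0.606 in mitochondria and at 0.60 and 0.564 in the rest fraction. Both comparisons of a matrix enzyme with its cytosolic counterpart overlapped between the fractions. Mdh2 stood to Mdh1 at 0.664 and 0.599 in mitochondria and at 0.626 and 0.557 in the rest fraction, a mean difference of 0.10 on the log2 scale with a pooled SD of 0.11. The log2 ratio of Idh2 to Idh1 was 5.47 and 4.83 in mitochondria and 4.90 and 4.32 in the rest fraction.

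**Figure D3:**
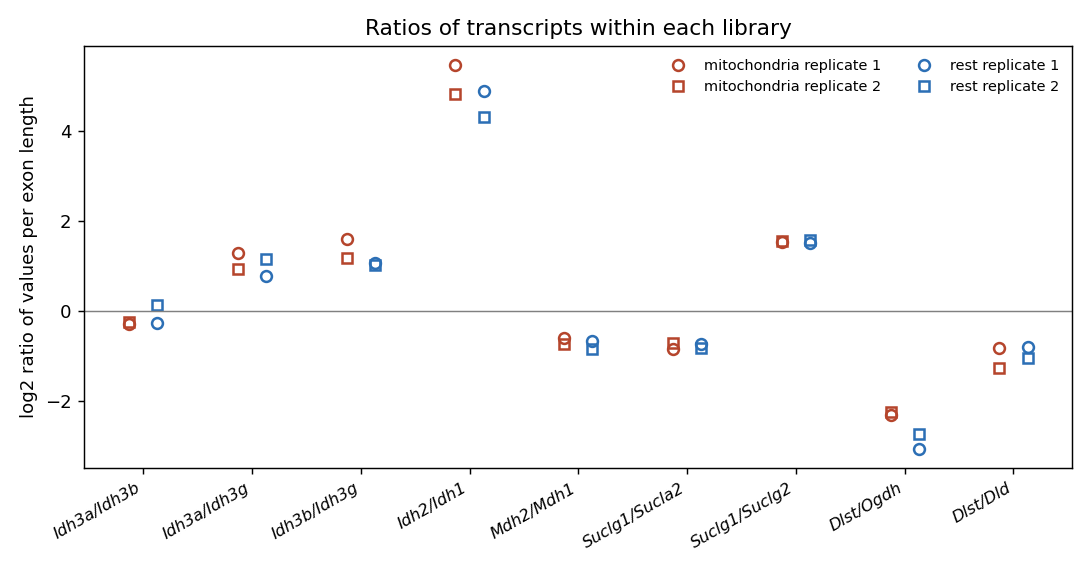
Log2 ratio of the values per exon length of 2 genes within each library, for 9 gene pairs, with circles for replicate 1 and squares for replicate 2. The mitochondrial and rest libraries are apart for Dlst to Ogdh and for Idh3b to Idh3g and overlap for the other pairs.

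The remaining enzymes and subunits of the cycle were counted from a list. Of 11 such genes, limma called 0 in either direction. At an unadjusted p-value under 0.05, 7 were higher and 0 lower, and the median log2 fold change was 0.72. Sdhb, the iron-sulfur subunit of succinate dehydrogenase, had 1321 and 857 normalized counts in mitochondria and 494 and 403 in the rest fraction (log2 fold change 1.25, limma adjusted p = 0.0669). Sdha, its flavoprotein subunit, had 2699 and 1870 against 2230 and 2011 normalized counts, with overlapping ranges (log2 fold change 0.09, limma adjusted p = 0.830). Fh1, which hydrates fumarate to malate, had 496 and 472 against 352 and 330 normalized counts, without overlap (log2 fold change 0.50, limma adjusted p = 0.124). Mrps36, which tethers the E3 component Dld in the 2-oxoglutarate dehydrogenase complex, had 124 and 94 against 39 and 38 normalized counts (log2 fold change 1.46, limma adjusted p = 0.0544). The list as a whole thus included both genes with interleaved fractions, such as Sdha, and genes whose fractions were apart.

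Of 10 genes for the entry into the cycle and its refilling, 0 were called higher and 0 lower, and the median log2 fold change was 0.22. Pdhb, a subunit of pyruvate dehydrogenase, had a log2 fold change of 0.93 (limma adjusted p = 0.0638). At the low end Nnt, the inner membrane transhydrogenase that makes NADPH, was listed at 0 and 15 normalized counts in mitochondria and at 35 and 31 in the rest fraction. Of 6 cytosolic counterparts, 0 were called in either direction and the median was 0.37. Among them Mdh1 had 3052 and 2395 normalized counts in mitochondria and 1432 and 1343 in the rest fraction (log2 fold change 0.96, limma adjusted p = 0.0634). The cytosolic malate dehydrogenase, whose protein is not a matrix enzyme, thus had a value close to the 1.06 of Mdh2. At the other end Aco1, the cytosolic aconitase, had 23 and 54 against 77 and 68 normalized counts (log2 fold change -1.01, limma adjusted p = 0.213). Of 8 inner membrane carriers of cycle metabolites, 6 were tested and 1 was called higher. This was Mpc2, a subunit of the mitochondrial pyruvate carrier, with 554 and 597 normalized counts in mitochondria and 219 and 219 in the rest fraction (log2 fold change 1.39, limma adjusted p = 0.0427). Of 5 genes for lipoylation, which attaches the cofactor of Dlst, and for desuccinylation, 4 were tested, 0 were called and all 4 had under 100 normalized counts in every library.

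The members differed in length, and the fold change followed it. Idh3g, Mdh2, Suclg1, Idh3b and Idh2, with annotated main transcripts of 1331 to 1745 bases, had log2 fold changes from 0.65 to 1.06. Idh3a, Dlst and Cs, with 2403, 2764 and 2926 bases, had 0.80, 0.33 and 0.22, and Ogdh, the longest with 4127 bases, had -0.30. Over the 9 members Spearman's rho between length and log2 fold change was -0.72, and Pearson's r with log2 length was -0.88, where all points come from the same 4 libraries. Over 10611 tested nuclear protein-coding genes, rho was -0.43 and r was -0.43. Over the 5243 of them with a mean above 50 normalized counts, rho was -0.59 and r was -0.62. When the 10611 genes were split into 5 groups by length, the median log2 fold change was 0.60 in the shortest (243 to 1928 bases). It was 0.04, -0.19, -0.37 and -0.56 in the following groups. All 9 members had a log2 fold change above the median of their own length group. When only genes with a mean above 50 normalized counts were split in this way, the median of the shortest group was 0.84, above the values of Idh2 and Idh3g, and that of the group of Ogdh was -0.19, above the value of Ogdh. The 5 cytosolic reference mRNAs followed length only in part. Ppia, a cytosolic prolyl isomerase, had 1170 bases and a log2 fold change of 1.09 (limma adjusted p = 0.0654), and Gapdh, with 1420 bases, had 0.73. Actb and Eef1a1, with 1920 and 1794 bases, had -0.38 and 0.23, below the 0.60 of the shortest group. Eef2, with 3089 bases, had 0.72, above the -0.19 of its own group. The part of length in the differences between the members was not tested.

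**Figure D4:**
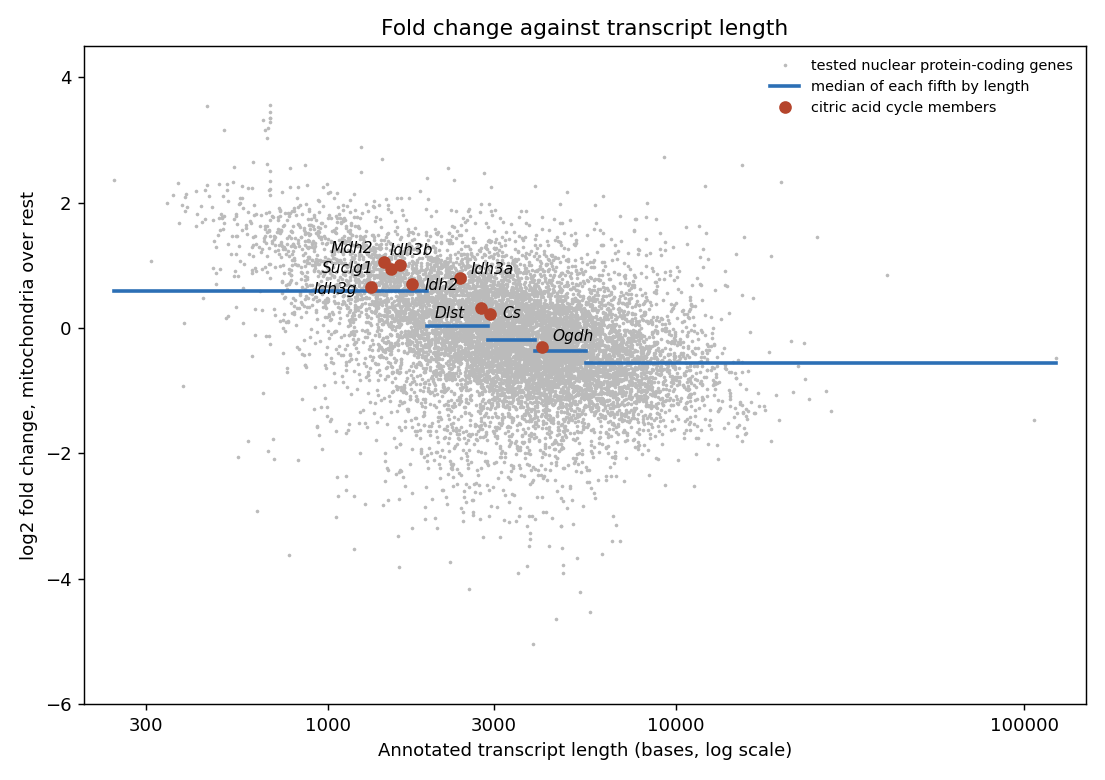
Log2 fold change, mitochondria over rest, against annotated transcript length (log scale) for 10611 tested nuclear protein-coding genes, with the median of each of 5 groups by length as a line and the 9 members as large points. The medians fall from 0.60 in the shortest group to -0.56 in the longest, and the members run from Mdh2 at 1.06 down to Ogdh at -0.30.

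Among nuclear protein-coding genes with a mean above 50 normalized counts, the profile over the 4 libraries was compared with the median profile of the members, as the Euclidean distance between log2 values centred on their own mean. The nearest of 5234 other genes were Scrn3, Kcnj8, Pnpla2, Hif1an and BC004004, at distances of 0.09 to 0.11. Suclg1 was the member nearest to this median profile, at 0.23, and 130 other genes were nearer to it. Ogdh was the farthest at 1.06, with 2769 other genes nearer.

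RNAs with a known place in the cell and markers of other cells also moved between the libraries. All 13 mRNAs encoded on the mitochondrial chromosome had positive log2 fold changes of 2.85 to 3.56, above that of each member, and 6 of them were called higher. In mitochondrial replicates 1 and 2 they summed to 5572826 and 8995033, so that replicate 2 was the higher, whereas the sum of the members was higher in replicate 1. Of 5 nuclear retained RNAs, 0 were called, 3 were lower at an unadjusted p-value under 0.05 and the median log2 fold change was -2.23. Malat1 had 13226 and 8375 normalized counts in mitochondria and 40240 and 43742 in the rest fraction, well above 0 in both. Of 8 cardiomyocyte markers, 1 was called higher, the light chain gene Myl3, 6 were higher and 1 was lower at an unadjusted p-value under 0.05, and the median log2 fold change was 1.23. The lower one, the calcium release channel gene Ryr2, had 10159 and 6395 normalized counts in mitochondria and 22792 and 18549 in the rest fraction (log2 fold change -1.35, limma adjusted p = 0.0755). Of 5 cytosolic reference mRNAs, 0 were called and the median was 0.72. All 5 fibroblast markers had both mitochondrial values above both rest values, which held for 27.7% of all tested genes. Their sums were 8188 and 3440 normalized counts in mitochondria and 2175 and 3063 in the rest fraction. Of 5 macrophage markers, 4 had both mitochondrial values above both rest values, with sums of 371 and 210 against 127 and 156 normalized counts. All 5 endothelial markers lay lower in both mitochondrial libraries, which held for 33.4% of all tested genes. Their sums were 1429 and 1262 against 2473 and 2248 normalized counts. All 5 erythrocyte markers also lay lower in both, with sums of 50 and 341 against 824 and 440 normalized counts. Alas2 was listed at 0 in mitochondrial replicate 1. Limma called 0 of the fibroblast, macrophage, endothelial and erythrocyte markers. At an unadjusted p-value under 0.05, 1 fibroblast and 3 macrophage markers were higher, and 5 endothelial and 0 erythrocyte markers were lower. Of 4 smooth muscle and pericyte markers, 2 lay lower in both mitochondrial libraries, and Myh11 was called lower. Of 2 brown adipocyte markers in the table, Fabp4 overlapped between the fractions and Cidea had at most 31 normalized counts. The part of these RNAs and cells in the values of the members was not tested.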

How the data were processed

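RNA from 2 mitochondrial and 2 rest libraries of WT mouse heart had been sequenced after library preparation with a stranded low-input kit. Trimming by the authors used Trimmomatic, alignment to mm10 (GRCm38) used STAR, exonic reads per gene were counted in featureCounts without those of several genes or positions, and DESeq2 gave the normalization. The submitters' processing notes name Trimmomatic 0.39, STAR 2.7.10a, featureCounts 2.0.2 and DESeq2 1.30.1, and the paper's methods give other versions of the last 3. The use of strand in counting is not given in the sources used here. The deposited signal holds reads over the size factor, rounded by the authors, so that counts could not be restored in the rest libraries and no count test was run.

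Moderated linear models (limma 3.58.1 in R 4.3.3, with the mean-variance trend) were fitted to log2(normalized count + 1), with fraction as the only term and Benjamini-Hochberg adjustment over the 12150 genes with at least 10 in at least 2 libraries. The 95% intervals come from the same fit. Fold changes on this scale understate the change of low genes. The fit and the estimate of the worth of a read were tested on simulated data. Depth limits counting error only. Of 15746 genes, 15736 were found in GENCODE M21 for GRCm38 and 15612 had the same coordinates. Exon lengths are the union of annotated exons, and the main transcript is the principal one, or else the longest coding one. Similar transcripts were searched with blastn 2.17.0 (at least 90% identity over 75 bases). Python 3.11.15, pandas 2.3.3, numpy 2.4.6, scipy 1.17.1 and matplotlib 3.10.9 were used. The named genes are the 9 members, genes of the pathway and marker lists that were called or lie at the ends of a list, genes that overlap or resemble a member, and the 5 nearest profiles. Fh1, Sdhb, Malat1, Myh6, Gapdh, Eef1a1, Eef2 and the markers listed at 0 were added after their values were seen. Members and lists were chosen with earlier results of these data known. Alternatives covered scaling, filter, pseudocount, trend, replicate block and each library left out.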

Additional observations from a re-analysis of the deposited data

How the results depend on the processing

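The number of members called by limma was 0 higher and 0 lower with no filter, with pseudocounts of 0.1 and 10, without the trend and with the total taken without the mitochondrial chromosome. With each library left out in turn, limma also called 0 genes, where the lone library of a fraction is assumed to vary like the others. Members were called higher with recomputed size factors (4, beside 666 of 12150 tested genes). The total over nuclear protein-coding genes, chosen after seeing the data, also gave 4, beside 615 of 12150. Restricting to genes of a mean above 50 gave 3, beside 790 of 5556 tested genes. The replicate block gave 2, Idh3b and Mdh2, beside 470 of 12150. The block changed no other call among the members. The replicate differences of the fractions correlated at 0.13 across genes, and libraries share only a number. All 9 were called lower when scaled to the library total or to the mitochondrial chromosome, as were 12022 and 12076 of the 12150 tested genes. The library totals were 183395941 and 81928351 normalized counts in mitochondria and 6956699 and 8584617 in the rest fraction. Dividing by them lowers the mitochondrial values of nearly every gene against the rest values. The cause of the differences between the fractions was not tested.

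Over all genes, 262 were higher and 169 lower. The higher and lower calls were 666 and 419 with recomputed size factors, 2 and 12022 scaled to the library total, 129 and 3819 without the mitochondrial chromosome, 2 and 12076 scaled to that chromosome, and 615 and 412 scaled to nuclear protein-coding genes. They were 279 and 630 without a filter, 790 and 670 with a mean above 50, 0 and 0 with a pseudocount of 0.1 (1694 and 1754 at an unadjusted p-value under 0.05), 536 and 580 with 10, and 470 and 309 with the replicate block. Without the trend 24 were higher and 143 lower, and with a library left out from 0 to 0 in either direction (before adjustment, 590 to 2333 higher and 468 to 3324 lower at p under 0.05).

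The median of the members exceeded that of all tested genes by 0.84, by 0.64 scaled to the library total, by 0.60 scaled to the mitochondrial chromosome, and by 0.68 to 1.09 with a library left out. The sign of single log2 fold changes turned when scaled to the library total, to -3.76 for Cs, -3.29 for Idh2, -3.18 for Idh3a, -2.98 for Idh3b, -3.32 for Idh3g, -3.65 for Dlst, -3.04 for Suclg1 and -2.93 for Mdh2. Scaled to the mitochondrial chromosome they were -4.31, -3.83, -3.73, -3.53, -3.86, -4.20, -3.58 and -3.47 in the same order. Without that chromosome in the total, Cs had -0.64, Idh2 -0.16, Idh3a -0.062, Idh3g -0.21 and Dlst -0.54. With a library left out Ogdh ranged from -0.62 to 0.022, the latter without mitochondrial replicate 2. Cs ranged from 0.068 to 0.38, Idh2 from 0.29 to 1.11 and Dlst from 0.039 to 0.62, each lowest without mitochondrial replicate 1 and highest without mitochondrial replicate 2. The 9 log2 differences in ratio moved by less than their pooled SD without a pseudocount and with a pseudocount of 10. With a library left out, the log2 difference ranged from 0.46 to 0.79 for Dlst to Ogdh, from 0.13 (without mitochondrial replicate 1) to 0.56 for Idh3b to Idh3g and from 0.22 (also without it) to 0.86 for Idh2 to Idh1. Of the other 6 ratios, Mdh2 to Mdh1 stayed positive and 5 changed sign.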
